A study of Mus musculus with 4 samples.

Results

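Palmitic acid (PA) was set against its absence in stellate cells that all received medium from adipose tissue-derived stem cells (ADSCs). The comparison uses 2 of the 4 arrays of the series, the array labelled with PA and ADSC medium and the array labelled with ADSC medium alone. They were picked out by their titles, and the comparison itself was chosen with earlier results of these data known. Stellate cells are liver cells that store retinoids at rest and turn into contractile, matrix-producing myofibroblasts when activated.

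The cells were IMS/N, a single line of hepatic stellate cells isolated from the liver of normal 129/Sv mice and immortalized with SV40 virus, and every culture in the series carries that immortalization. The PA and ADSC medium culture received palmitic acid together with medium taken from ADSC cultures, and the ADSC medium culture received the medium without PA. The PA culture and the control culture stand in the same relation without ADSC medium, and their difference is given beside the first. The ADSCs came from the inguinal fat of male C57BL/6J mice aged 8 to 10 weeks. The sources used here do not give the dose and duration of PA, its vehicle, or the medium of the 2 cultures without ADSC medium. Each condition has 1 array. A difference reported here therefore describes a pair of cultures, has no replicate check and carries no p-value.

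Palmitic acid is a saturated fatty acid. Cells that take it up store it as triglyceride, oxidize it or build it into membranes, and an excess of it is known to stress the endoplasmic reticulum and mitochondria. The pathway to which most of the largest differences below belong is the type I interferon response. In that pathway nucleic acid sensors and Toll-like receptors lead to the transcription of Ifnb1, secreted interferon binds the receptor made of Ifnar1 and Ifnar2, and a complex that includes Stat2 and Irf9 then binds an element called ISRE in the promoters of antiviral genes. Sterol synthesis is governed by another factor, SREBP2, which binds sterol regulatory elements (SREs) and is active when cell sterol is low.

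Promoter sequences are printed for 5 interferon genes that were several-fold higher on the PA and ADSC medium array and for 1 sterol gene that was lower there, because the genes of each of these groups mostly shared a direction. They were chosen after the values were seen. They are RefSeq sequences on build GRCm38.p6, 150 bases before the gene's start, written 5′ to 3′ on the gene's own strand. Capitals mark the letters GAAA, any 2 bases and GAAA again, on either strand, a core of the ISRE, and in Hmgcs1 the letters TCACNCCAC on either strand, a core of the SRE. Overlapping matches are merged, and in Ifit3 the first 4 capitals are the end of a match that begins outside the window.
Isg15, chr4:156200819-156200968, minus strand: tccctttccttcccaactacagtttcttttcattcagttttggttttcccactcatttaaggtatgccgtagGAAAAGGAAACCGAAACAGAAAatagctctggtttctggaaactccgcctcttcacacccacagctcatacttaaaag
Ifit1, chr19:34640739-34640888, plus strand: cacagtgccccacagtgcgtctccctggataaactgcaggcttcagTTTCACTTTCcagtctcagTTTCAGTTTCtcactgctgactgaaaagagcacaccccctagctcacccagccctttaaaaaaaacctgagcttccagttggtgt
Ifit3, chr19:34583379-34583528, plus strand: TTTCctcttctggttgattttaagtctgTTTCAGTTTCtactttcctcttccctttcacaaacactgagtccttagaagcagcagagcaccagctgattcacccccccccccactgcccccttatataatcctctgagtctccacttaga
Igtp, chr11:58199406-58199555, plus strand: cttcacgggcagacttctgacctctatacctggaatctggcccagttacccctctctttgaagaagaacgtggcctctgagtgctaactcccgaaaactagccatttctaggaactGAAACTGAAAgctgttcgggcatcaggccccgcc
Irgm2, chr11:58214827-58214976, plus strand: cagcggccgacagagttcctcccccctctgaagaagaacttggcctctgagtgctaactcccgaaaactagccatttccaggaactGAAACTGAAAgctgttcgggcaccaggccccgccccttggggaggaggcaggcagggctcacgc
Hmgcs1, chr13:119690201-119690350, plus strand: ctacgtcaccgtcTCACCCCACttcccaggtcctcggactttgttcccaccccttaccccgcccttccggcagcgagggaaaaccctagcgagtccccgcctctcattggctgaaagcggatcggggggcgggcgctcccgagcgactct

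Within 250 bases before the start, the ISRE letters were found in 40 of the 152 genes at least 2-fold higher that have a promoter in the table, which is 26.3%. The same letters stood in 3.46% of all 27025 promoters of that length and in 3.27% of the 12162 promoters of genes compared. None of 55 promoters of genes at least 2-fold lower held them. Among the interferon groups described below, all 8 interferon-inducible GTPases with a promoter in the table held the letters, as did 3 of 5 oligoadenylate synthetases, 3 of 8 feedback inhibitors and 5 of 20 antiviral effectors. The share was lower in the other four groups, with 2 of 10 sensors, 2 of 11 MHC class I genes, 1 of 8 interferons and receptors and 1 of 11 signalling factors. These group counts cover genes compared. Over all 112 members of the 8 lists on the array, compared or not, 26 of the 85 with a promoter held the letters. The SRE letters stood in 1 of 17 promoters of sterol genes, that of Hmgcs1, and in 1.22% of all promoters. A match describes the letters in this window and shows no binding.

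The 4 arrays, scanned together on 1 slide, each carried 45018 spots, with 43379 left once controls were set aside and none saturated. Probes well above background made up 69.4% of the PA and ADSC medium array and 68.5% of the ADSC medium array, and 70% of the PA array and 67.5% of the control array. Levels are log2 intensities, quantile-normalized over the 4 arrays, and a difference of 1 on this scale is a factor of 2. For probes printed on several spots, 2 single spots of a probe differed with an SD of 0.303 under a level of 3, 0.0692 at levels of 9 to 11 and 0.058 above 11. That SD covers the array measurement only, not the variation between cultures. Levels of different genes come from different probes and are not compared with each other. In bulk RNA, fewer cells that express a gene and less RNA of it per cell cannot be told apart.

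The stellate label was checked against 14 markers. On both arrays 9 of them were well above background, among them Vim at 16.06 with PA and ADSC medium and 16.05 with ADSC medium, and Pdgfrb at 12.79 and 12.74 in the same order of arrays. Des, the muscle-type intermediate filament of stellate cells, was dim at 3.37 with PA and ADSC medium and 3.47 with ADSC medium. Reln, Lrat, Hand2, Gfap and Rgs5 were not well above background on either array, and these include Lrat, the enzyme that stores retinol as ester. None of the 9 detected markers differed by 1.5-fold. Defining markers of other cells that were not well above background on either array were Alb, Apoa1 and Ttr of hepatocytes, Ptprc, Adgre1 and Clec4f of macrophages, Pecam1 and Cdh5 of endothelium, Epcam and Cdh1 of epithelium, and Adipoq, Plin1 and Lep of adipocytes. Other markers of such cells were well above background on both arrays. They included Cd14, Cd68 and Lyz2 of macrophages, Kdr of endothelium, Krt7, Krt19 and Sox9 of epithelium, and Cd34 and Ly6a of adipose stroma. Of 7 portal fibroblast or mesothelial markers 4 were so, among them Fbln2 at 16.17 and Msln at 14.94 with PA and ADSC medium. The markers therefore did not single out stellate cells. Of the detected markers of other cell types only Cidec, a lipid droplet protein of adipocytes, differed by 1.5-fold, at 4.07 with PA and ADSC medium against 3.37 with ADSC medium.

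Of 18465 genes compared, 233 (1.26%) had a level at least 2-fold higher with PA and ADSC medium than with ADSC medium, and 88 (0.477%) were at least 2-fold lower. Only genes whose probe stood well above background on 1 or both of the 2 arrays were compared. For 29 of the higher and 20 of the lower genes the probe passed on 1 array only, so their fold is a lower bound. The larger differences leaned upward: 48 genes (0.26%) were at least 4-fold higher and 6 (0.0325%) were at least 4-fold lower. At 1.5-fold, the threshold used for gene lists, the shares were close to each other, at 653 genes higher (3.54%) and 579 lower (3.14%). The list counts with the medium given below are to be read beside these shares. The median over all genes compared was -0.02. The counts depend on how the background is treated: with the normexp correction 105 genes were at least 2-fold higher and 9 lower.

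The gene with the largest difference among those that met the naming rule was Ccl4, a CC chemokine that attracts lymphocytes and monocytes (probe at chromosome 11, 83478052 to 83478111 of build mm9). Its level was 8.89 with PA and ADSC medium and 4.99 with ADSC medium, a 14.9-fold difference; with the normexp background its log2 difference was 2.55, below that of Ifi44 (3.08) and Mx2 (3.07). Without the medium Ccl4 stood at 7.71 with PA and 3.48 in control. It was thus high on both arrays with PA and low on both without, and its level on the 2 medium arrays exceeded that on the matching arrays without medium.

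Of the 15 genes with the largest positive difference under the naming rule, 10 belong to the interferon lists: Mx2, Ifi44, Zbp1, Ifit3b, Oas1g, Iigp1, Ifit3, Irf7, Oas2 and Igtp. The other five are Ccl4, Cxcl10, Mmp13 and a pair of transcripts that the array lists as BC023105 and NAP007796-001. BC023105 stood at 7.27 with PA and ADSC medium and 4.33 with ADSC medium, and NAP007796-001 at 12.81 and 10.22 in the same order. The probe of NAP007796-001 lies on chromosome 19 at 34662998 to 34663057 of mm9, beside that of Ifit3 at 34663105 to 34663164, so the 2 may read the same transcript. Over all 8 interferon lists, 65 of the 108 members compared passed 1.5-fold upward with PA and ADSC medium against ADSC medium, 56 of them also 2-fold, and 1 passed 1.5-fold downward. Their median difference was 1.09, beside -0.02 for all genes. Members of these lists made up 24% of all genes at least 2-fold higher, while they were 108 of the 18465 genes compared. Over all genes compared, 3.54% passed 1.5-fold upward and 3.14% downward.

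**Figure D1:**
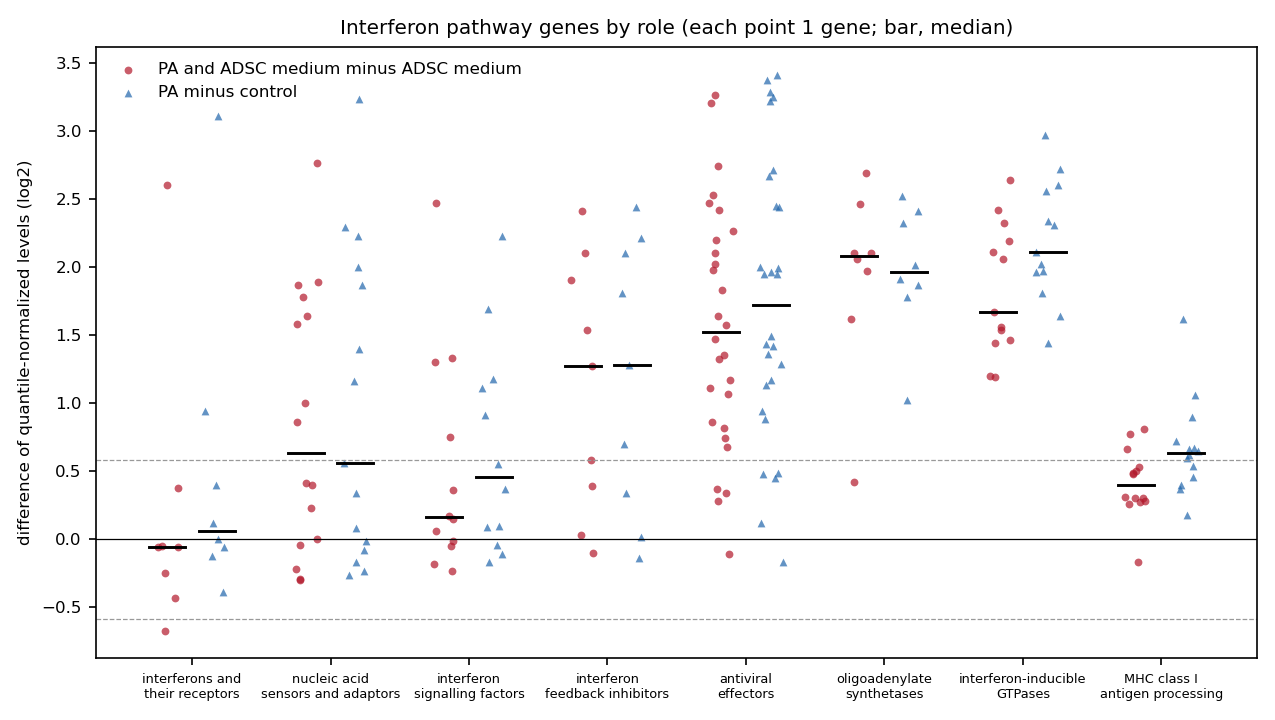
Difference in quantile-normalized log2 level for each gene of the 8 interferon lists, with PA and ADSC medium minus ADSC medium as red circles and PA minus control as blue triangles. Black bars are list medians and dashed lines mark 1.5-fold; the medians run from 2.08 for the oligoadenylate synthetases to -0.06 for interferons and their receptors with the medium.

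At the head of the pathway, Ifnb1, which encodes interferon beta, read 4.90 with PA and ADSC medium and 1.51 with ADSC medium. The second value was not well above background, so the gene was at least 6.06-fold higher. Without the medium Ifnb1 read 5.53 with PA and 1.41 in control, at least 8.61-fold higher. The probe was detected on the 2 arrays with PA and on neither array without it. These levels are low, and with the normexp background the difference with the medium was 0.49, under 1.5-fold. The interferon alpha gene Ifna2 differed by 0.38 and was dim on both medium arrays, while Ifna4, Ifne and Ifng were not well above background on either.

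The interferon receptors did not share the pattern. Ifnar1, a chain of the type I receptor, was 8.22 with PA and ADSC medium and 8.28 with ADSC medium. Its partner Ifnar2 was 9.82 and 9.87 on the same arrays. Of the 8 members compared in this list, 1 was at least 1.5-fold higher and 1 was lower, namely Ifnlr1, a chain of the lambda interferon receptor, at 6.42 with PA and ADSC medium and 7.09 with ADSC medium.

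Among 16 sensors and adaptors, 8 were at least 1.5-fold higher and none was lower by that factor, while 4 were lower by any amount. The median difference was 0.63, and 0.39 with the normexp background. Several sensors were among the 8. Zbp1, a sensor of Z-form nucleic acid linked to necroptosis, stood at 10.47 with PA and ADSC medium and 7.70 with ADSC medium, 6.79-fold higher. Ifih1, which encodes the double-stranded RNA sensor MDA5, stood at 11.22 against 9.44, 3.43-fold higher, and Ddx58, which encodes RIG-I, was 2.98-fold higher. Dhx58, their relative LGP2, stood at 10.83 with PA and ADSC medium and 8.96 with ADSC medium. The adaptors that pass the signal on differed little. The difference was -0.30 for Mavs, the mitochondrial adaptor of the RNA sensors, -0.04 for Sting1, the adaptor of the DNA sensor cGAS, and 0.41 for Myd88, the adaptor of most Toll-like receptors. Tlr4, the receptor for lipopolysaccharide, differed by -0.29 and Tlr3, the endosomal receptor for double-stranded RNA, by 1.64.

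Of 12 signalling factors, 4 were at least 1.5-fold higher, among them Irf7, Irf9 and Stat2. Irf7, the factor that amplifies interferon gene transcription, stood at 11.68 with PA and ADSC medium and 9.21 with ADSC medium, 5.56-fold higher. Irf9 and Stat2 of the ISRE-binding complex were 2.52-fold and 2.46-fold higher in that order. Stat2 stood at 11.72 with PA and ADSC medium and 10.42 with ADSC medium. The kinases Jak1, Jak2, Tyk2 and Tbk1 and the factor Irf3, which act upstream without needing new transcription, lay between -0.23 and 0.15.

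In the list of feedback inhibitors, which also holds Isg15, 5 of 9 members were at least 2-fold higher, beside 1.26% of all genes. Usp18, the protease that removes Isg15 and blocks the receptor, stood at 13.16 with PA and ADSC medium and 10.75 with ADSC medium, 5.31-fold higher. Isg15, the ubiquitin-like modifier whose promoter is printed above, stood at 15.17 against 13.07, 4.29-fold higher, and without the medium it stood at 15.41 with PA and 13.31 in control, also 4.29-fold. Trim30a, Trim21 and Adar completed the group. The cytokine signalling suppressors were lower in difference, at 0.39 for Socs1 and 0.03 for Socs3.

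The antiviral effectors held 24 of 28 members at least 1.5-fold higher and none lower, with a median difference of 1.52. Mx2, a dynamin-like antiviral GTPase (probe at chromosome 16, 97782327 to 97782386), stood at 12.13 with PA and ADSC medium and 8.88 with ADSC medium, 9.55-fold higher. Ifi44 stood at 12.70 and 9.50 on the same arrays, 9.20-fold higher. Ifit3, of a family of proteins that recognize viral RNA, stood at 13.14 against 10.60, 5.79-fold higher. Some members differed little: Ifit2, of the same family, was 8.85 with PA and ADSC medium and 8.52 with ADSC medium, and Ifitm1 was 6.64 and 6.75. Rsad2, which encodes the antiviral enzyme viperin, was 5.35-fold higher.

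All 8 genes of the oligoadenylate synthetase list were higher and 7 of them at least 2-fold. These enzymes make a short oligoadenylate messenger when they meet double-stranded RNA. Oas1g stood at 6.62 with PA and ADSC medium and 3.94 with ADSC medium, a difference of 2.69 that was 1.15 with the normexp background. Oas2 stood at 11.63 against 9.17, 5.49-fold higher. Every one of the 13 interferon-inducible GTPases, which attack membranes around intracellular microbes, was at least 2-fold higher. They ran from 2.28-fold for Gbp9 to 6.23-fold for Iigp1, with Igtp at 14.25 with PA and ADSC medium and 11.82 with ADSC medium. Several genes of these families are near copies (Ifit3 and Ifit3b, the Oas1 genes), so probes may cross-hybridize between them.

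MHC class I genes, which present peptides to T cells, differed less, with 3 of 14 at least 1.5-fold higher and a median of 0.39. Psmb8, an immunoproteasome subunit, was 1.75-fold higher and Tap1, a peptide transporter, 1.71-fold. Without the medium 9 of the 14 passed 1.5-fold, with a median of 0.63. Tap1 stood at 8.11 with PA and ADSC medium and 7.34 with ADSC medium, and at 9.02 with PA and 7.40 in control.

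With PA against control, where the cultures had no ADSC medium, 73 of 107 members of the 8 interferon lists were at least 1.5-fold higher, beside 2.92% of all genes, and none was lower, with a median difference of 1.28. A total of 63 members passed 1.5-fold in both comparisons. In 48 of these 63 the difference was smaller with the medium, and the median gap over all 63 was -0.22. The number was 44 with 75th percentile scaling and 47 with either the normexp background or the mean of detected probes. The matching share among other genes that were higher in both comparisons is not given here. Whether a smaller difference with the medium is particular to interferon genes was therefore not tested. Rsad2 lay well beyond that median gap, with a difference of 2.42 with the medium and 3.37 without. It stood at 10.67 with PA and ADSC medium and 8.25 with ADSC medium. Mx2 lay near the median gap, at 3.26 with the medium and 3.41 without. Others of the 63 had the larger difference with the medium, such as Oas1g at 2.69 against 2.01 and Irf7 at 2.47 against 2.23. With 1 array a condition, whether these gaps exceed the variation between cultures was not tested.

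Across the 17971 genes compared in both, the difference with the medium and that without it correlated with Pearson's r of 0.52 and Spearman's rho of 0.37. The genes are not independent replicates, and the 4 arrays share a slide, a scan and a joint normalization, although the 2 comparisons share no array. Without the interferon genes r was 0.46 and rho 0.36. Of the genes at least 2-fold higher, 139 were so in both comparisons, which is 59.7% of the 233 with the medium and 69.8% of the 199 (1.09% of 18209) without it. Of the genes at least 2-fold lower, 26 were shared, 29.5% of the 88 with the medium and 23.9% of the 109 (0.599%) without it.

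**Figure D2:**
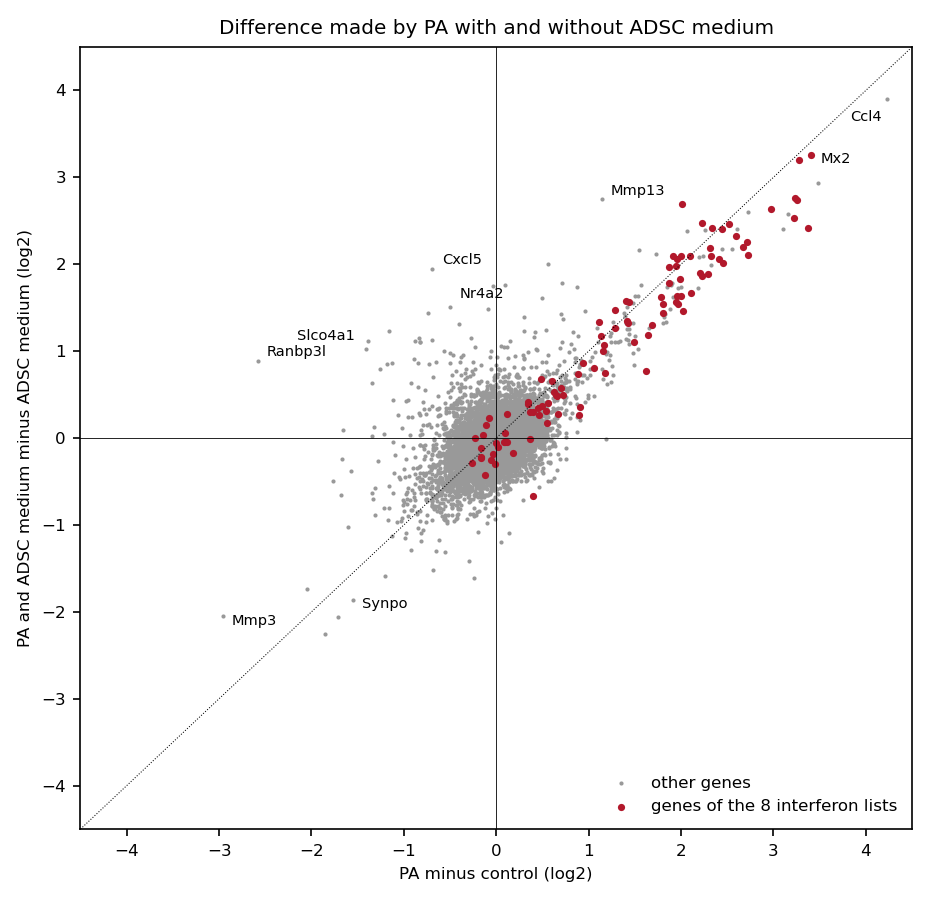
Each point is 1 gene well above background on all 4 arrays with a mean level of at least 5; the vertical axis is PA and ADSC medium minus ADSC medium and the horizontal axis PA minus control, both in log2 units, with genes of the 8 interferon lists in red. Of 107 interferon genes compared in both, 82 have the lower difference with the medium, which places those drawn below the dotted line of equal differences. The matching share of other genes is not given. Cxcl5, Slco4a1 and Ranbp3l lie above zero vertically and below zero horizontally.

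The authors' deposited table of genes called up by PA without the medium lists 1580 probes, with no values. Of these, 1139 were compared here on the 2 medium arrays, and 70.7% were higher by any amount, beside 48.9% of all 28866 probes compared. At 1.5-fold 285 probes of the authors' deposited table (25%) were higher and 2.46% lower, beside 3.35% and 3.02% of all probes. The list was chosen on the PA and control arrays, which this comparison does not use.

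Chemokines were the group, outside the 8 interferon lists, with the highest median difference, 0.92, with 11 of 17 at least 1.5-fold higher and 1 lower. Without the medium the median was 0.41, with 6 of 15 higher and 2 lower. Over all genes compared, 3.54% were higher and 3.14% lower at 1.5-fold with the medium, and 2.92% and 3.27% without it. The 2 chemokine counts do not cover the same members, since a gene was compared only where its probe was detected on an array of that pair. The ligands of the receptor Cxcr3, which draws T cells, were high in both. Cxcl10 stood at 14.84 with PA and ADSC medium and 12.24 with ADSC medium, 6.05-fold higher, and without the medium at 14.64 with PA and 11.91 in control. Cxcl11 was detected on the PA and ADSC medium array at 5.61 and not on the ADSC medium array, at least 9.90-fold higher, while the normexp background gave a log2 difference of 0.85. Ccl5, a T cell and monocyte attractant, was 5.21-fold higher.

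Some other ligands had unlike values in the 2 comparisons, and they are described with those values in view. Cxcl1, a neutrophil attractant, stood at 12.33 with PA and ADSC medium and 10.33 with ADSC medium, against 9.79 with PA and 9.23 in control. Its difference was 2.0 with the medium and 0.56 without. Cxcl5, another neutrophil attractant (probe at chromosome 5, 91190205 to 91190264), stood at 10.42 with PA and ADSC medium and 8.47 with ADSC medium, but at 5.98 with PA and 6.67 in control, where the normexp background gave -0.43, under 1.5-fold. Both genes had their highest level on the PA and ADSC medium array. Ccl2, the main monocyte attractant, differed by 1.16 with the medium and by 0.41 without, and Ccl7 by 0.92 and 0.13.

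In the list of cytokines and NF-kB targets, 9 of 25 members passed 1.5-fold upward and 1, Csf3, downward, with a median of 0.28. Il6, the acute-phase cytokine, stood at 9.01 with PA and ADSC medium and 6.63 with ADSC medium, 5.22-fold higher, and at 8.31 with PA and 6.05 in control, 4.78-fold higher. Ptgs2, the inducible cyclooxygenase of prostaglandin synthesis, stood at 11.41 with PA and ADSC medium and 9.65 with ADSC medium, against 9.48 with PA and 9.38 in control. Il6 was thus high on both arrays with PA, and Ptgs2 stood apart on the PA and ADSC medium array only. Il33, an alarmin, was 2.34-fold higher with the medium and 1.34-fold without. Feedback genes of NF-kB lay closer to 0, with Nfkbia at 0.48 and Tnfaip3 at -0.08, and Il1a, Il1b and Tnf were not well above background on either array.

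Immediate early genes, which cells switch on within minutes of a stimulus, were higher in 20 of 22 cases, beside 47.4% of all genes, and 6 passed 1.5-fold, with a median of 0.29 against 0.08 without the medium. Ier3 stood at 13.53 with PA and ADSC medium and 11.79 with ADSC medium, against 11.14 with PA and 11.17 in control. Nr4a2, an orphan nuclear receptor, stood at 11.23 with PA and ADSC medium and 9.72 with ADSC medium, against 8.61 with PA and 9.11 in control. For both genes the PA and ADSC medium array was the highest of the 4. Fosb, Nr4a1, Fos and Egr1 were the other four past 1.5-fold, of which Fos (0.55) and Egr1 (0.87) were also higher with PA against control.

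Growth factors of the EGF family were among those higher with the medium. Ereg, which encodes epiregulin, stood at 7.15 with PA and ADSC medium and 5.76 with ADSC medium, 2.62-fold higher, beside 1.23-fold without the medium. Areg, amphiregulin, was 1.84-fold higher. Of 22 growth factors compared 3 were at least 1.5-fold higher and 1, Angpt1, lower. Hgf, the hepatocyte growth factor, was not well above background on either array. Areg and Angpt1 were below 1.5-fold with the normexp background, at 0.33 and -0.08. Angpt1 was dim, at 2.64 with PA and ADSC medium and 3.42 with ADSC medium, and its second probe gave a difference of -0.12.

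Sterol synthesis showed the opposite direction. All 25 genes of cholesterol synthesis and its control were lower with PA and ADSC medium than with ADSC medium, 8 of them at least 1.5-fold, with a median of -0.49. Of all genes compared, 52.4% were lower by any amount. Hmgcs1, which condenses acetyl units ahead of mevalonate and whose promoter is printed above, stood at 13.03 with PA and ADSC medium and 13.78 with ADSC medium. Mvd, the mevalonate pathway decarboxylase, had the largest difference, at 11.10 with PA and ADSC medium and 11.90 with ADSC medium. Without the medium all 25 were also lower with PA than in control, with a median of -0.39 and 4 at 1.5-fold, beside 51.3% of all genes lower by any amount.

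Fatty acid synthesis genes were lower in 19 of 22 cases, beside 52.4% of all genes. Their median was -0.23, and 2 members, Elovl6 and Acss2, were past 1.5-fold. Elovl6, the elongase that extends palmitate to stearate, stood at 12.09 with PA and ADSC medium and 12.69 with ADSC medium. Scd1, the desaturase of saturated fatty acids, differed by -0.38. Targets of PPAR and of fatty acid oxidation showed no common direction, with a median of -0.06 and 2 of 28 higher and 1 lower at 1.5-fold. Angptl4, a secreted inhibitor of lipoprotein lipase and a sensitive PPAR target, had the largest difference in the list: it stood at 13.50 with PA and ADSC medium and 12.37 with ADSC medium, 2.18-fold higher, and was 2.53-fold higher with PA against control. Acot2, an acyl-CoA thioesterase, was also past 1.5-fold upward, at 0.69, and Plin4, a lipid droplet protein, downward, at -0.66. Cpt1a, the gate of mitochondrial fatty acid import, differed by 0.16, Plin2, which coats lipid droplets, by 0.36, and Pdk4 by -0.17.

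The LXR targets, which govern cholesterol efflux, split. Abcg1 stood at 9.41 with PA and ADSC medium and 8.55 with ADSC medium, 1.81-fold higher, while Abca1 stood at 6.67 against 7.60, 1.91-fold lower. Both encode cholesterol exporters. Without the medium Abcg1 was lower with PA, at 6.91 against 7.76 in control.

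**Figure D3:**
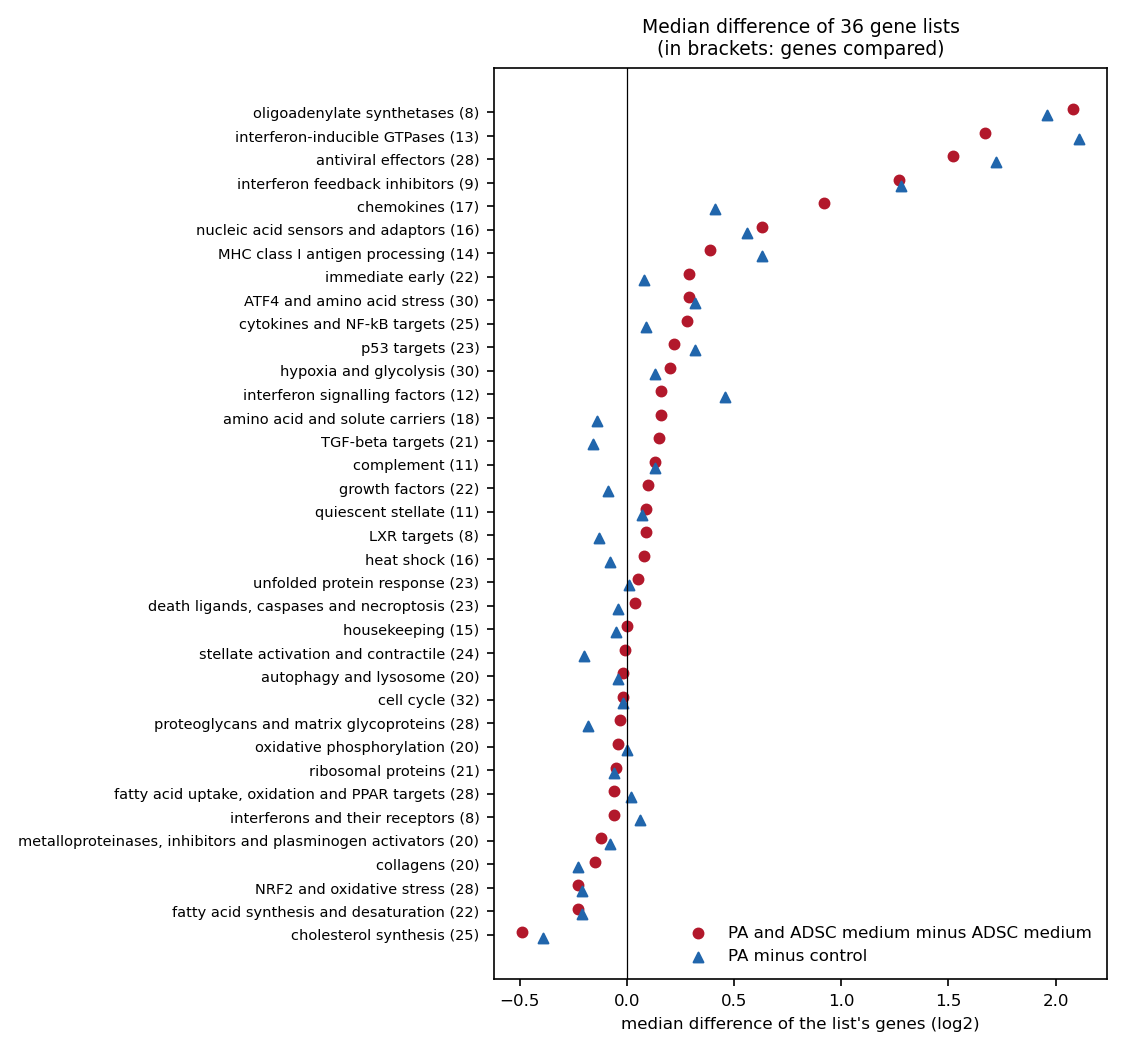
Median difference of each of 36 gene lists in log2 units, with the number of genes compared in brackets; red circles are PA and ADSC medium minus ADSC medium, and blue triangles are PA minus control. The medians with the medium run from 2.08 for oligoadenylate synthetases to -0.49 for cholesterol synthesis, and most other lists lie near 0.

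The unfolded protein response, through which cells answer misfolded protein in the endoplasmic reticulum, showed no member of 23 at 1.5-fold in either direction, with a median of 0.05. Hspa5, the chaperone BiP, stood at 15.47 with PA and ADSC medium and 15.07 with ADSC medium, and Xbp1 differed by -0.10. Targets of ATF4, the factor of amino acid shortage and of the integrated stress response, were higher in 28 of 30 cases, beside 47.4% of all genes, with a median of 0.29 and 4 at 1.5-fold. Atf3 stood at 11.47 with PA and ADSC medium and 10.30 with ADSC medium, 2.25-fold higher. Ddit3, which encodes the stress factor CHOP, differed by 0.38 and Trib3 by 0.15. The median of the ATF4 targets without the medium was 0.32.

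Targets of NRF2, the factor of the oxidative stress response, were lower in 22 of 28 cases, beside 52.4% of all genes. Their median was -0.23, with 3 lower at 1.5-fold, beside 3.14% of all genes. Mgst1, a microsomal glutathione transferase, stood at 9.56 with PA and ADSC medium and 10.39 with ADSC medium, and Nqo1, a quinone reductase, at 9.56 against 10.19. Hmox1, the inducible haem oxygenase, differed by 0.15. Of the p53 targets, 1 of 23 passed 1.5-fold, Pmaip1, which encodes the death protein NOXA, at 6.71 with PA and ADSC medium and 5.39 with ADSC medium. Hypoxia genes were higher in 25 of 30 cases, beside 47.4% of all genes. Only 1 was past 1.5-fold, the lactate exporter Slc16a3, beside 3.54% of all genes. Among the heat shock genes, the near-identical pair Hspa1b and Hspa1a differed by 1.15 and 0.79 with the medium and by -0.27 and 0.02 without it.

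Genes of stellate activation showed no common direction: of 24, 1 was at least 1.5-fold higher and 2 were lower, with a median of -0.01, beside -0.20 without the medium. Acta2, the smooth muscle actin that marks myofibroblasts, stood at 13.56 with PA and ADSC medium and 13.35 with ADSC medium, against 14.58 with PA and 14.78 in control. The brightest probe gave a difference of 0.21 with the medium, while the mean over the gene's probes gave -0.23, so its direction depends on the probe. Tagln, which encodes the actin-binding protein transgelin, stood at 13.50 with PA and ADSC medium and 12.80 with ADSC medium, 1.63-fold higher, beside 1.18-fold without the medium. Lmod1 and Synpo2, both of the contractile apparatus, were the 2 that were lower. Tgfb1, the main profibrotic cytokine, stood at 9.06 and 9.13, and its target Ccn2 at 15.26 and 15.17 on the same arrays. Pdgfrb, the receptor that drives stellate cell growth, differed by 0.04 with the medium and by -0.93 without it.

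Collagen genes differed little, with a median of -0.15 and 14 of 20 lower, beside 52.4% of all genes, and none passed 1.5-fold downward. Col1a1, the chain of the main scar collagen, stood at 14.81 with PA and ADSC medium and 14.96 with ADSC medium. Col3a1 stood at 12.08 against 12.64, 1.48-fold lower. Col6a3, at 7.77 against 7.17, was the single collagen past 1.5-fold and was higher. Matrix glycoproteins differed both ways: Tnc, tenascin C, was 2.69-fold higher and Postn, periostin, 1.65-fold higher, while the small leucine-rich proteoglycans Prelp, Ogn and Omd were 2.25-fold, 2.03-fold and 1.58-fold lower. Ogn stood at 9.77 with PA and ADSC medium and 10.79 with ADSC medium, against 8.91 with PA and 10.50 in control.

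The matrix-degrading enzymes held both large directions. Mmp13, the main interstitial collagenase of the mouse (probe at chromosome 9, 7282762 to 7282821), stood at 7.83 with PA and ADSC medium and 5.08 with ADSC medium, 6.74-fold higher. Without the medium it stood at 6.15 with PA and 5.0 in control, 2.21-fold higher. With the normexp background the log2 difference of Mmp13 was 1.68 with the medium and 0.51, under 1.5-fold, without it. Mmp3, stromelysin, which lies near it on the same chromosome (probe at 7455751 to 7455810), stood at 8.29 with PA and ADSC medium and 10.34 with ADSC medium, 4.14-fold lower, and at 5.73 with PA and 8.69 in control, 7.77-fold lower. Mmp13 was highest on the PA and ADSC medium array and Mmp3 was lowest on the PA array. Timp1, an inhibitor of these enzymes, differed by 0.35, and Spp1, osteopontin, by 0.51.

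**Figure D4:**
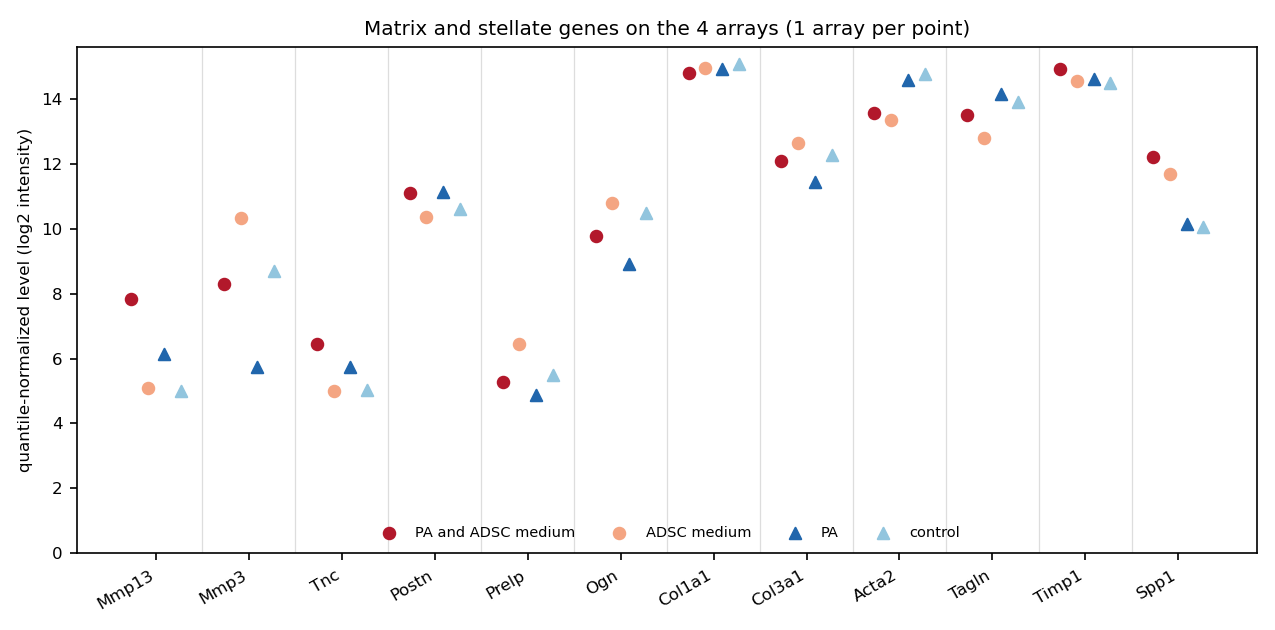
Quantile-normalized log2 level of 12 matrix and stellate genes on each array, 1 array per point; from left to right in each gene the arrays are PA and ADSC medium, ADSC medium, PA and control. Mmp13 is high at 7.83 on the PA and ADSC medium array and Mmp3 low at 5.73 on the PA array, while the levels of Col1a1 lie between 14.81 and 15.09.

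Among complement-related genes, Cfhr2 stood at 4.63 with PA and ADSC medium and 6.68 with ADSC medium, 4.16-fold lower, and at 3.70 with PA and 5.41 in control, 3.27-fold lower. Its family holds similar genes, so its probe may also read their transcripts. C3, the central complement component, was 2.04-fold higher, at 9.35 with PA and ADSC medium and 8.32 with ADSC medium.

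The other genes at the low end were of several kinds. Rarb, a retinoic acid receptor that is itself induced by retinoic acid, stood at 5.04 with PA and ADSC medium and 6.79 with ADSC medium, 3.35-fold lower. Synpo, an actin-associated protein, stood at 7.95 against 9.82, and its mean over detected probes gave a difference of -1.06 in place of -1.86. Of the linker histone genes, H1f5 was 2.48-fold lower with the medium and 1.47-fold lower without it, and H1f3 was 3.06-fold and 1.18-fold lower. H1f3 stood at 6.56 with PA and ADSC medium and 8.18 with ADSC medium, against 7.61 with PA and 7.85 in control. The cell cycle list had a median of -0.02, with 1 of 32 lower at 1.5-fold, Plk1, a mitotic kinase. Others among the 15 lowest were Klk1b27 and Klk1b24, which are kallikrein genes of high similarity, and Gda, Add2, Gm39749, Medag, Dnajb14 and Dtx4.

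A set of genes went in opposite directions in the 2 comparisons. Of 17971 genes compared in both, 38 were at least 1.5-fold higher with the medium and at least 1.5-fold lower without it, and 22 of them were well above background on all 4 arrays with a mean level of at least 5. The reverse held for 9 genes, none of them at such levels. Ranbp3l, which encodes a nuclear export factor for Smad proteins (probe at chromosome 15, 8996153 to 8996212), differed most. It stood at 10.49 with PA and ADSC medium and 9.61 with ADSC medium, 1.85-fold higher, against 5.62 with PA and 8.20 in control, 5.97-fold lower. Its level on the PA array was far below the other three.

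Slco4a1, an organic anion and thyroid hormone carrier, stood at 12.90 with PA and ADSC medium and 11.87 with ADSC medium, against 9.21 with PA and 10.62 in control. Fpr2, a formyl peptide receptor, stood at 6.66 and 5.43 with the medium, and at 4.18 with PA and 5.34 in control, where the normexp background gave -0.39. In each of these the order of the 4 arrays was the same, highest with PA and ADSC medium and lowest with PA. Cck, which encodes cholecystokinin, gave 10.00 with PA and ADSC medium and 9.15 with ADSC medium on its brightest probe, but the mean over its probes gave a difference of 0.31 in place of 0.85. Among the 22, chosen for mention after their values were seen, were 5 genes of the late cornified envelope family (Lce1f, Lce1g, Lce1h, Lce1i and Lce1j), whose sequences are alike.

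**Figure D5:**
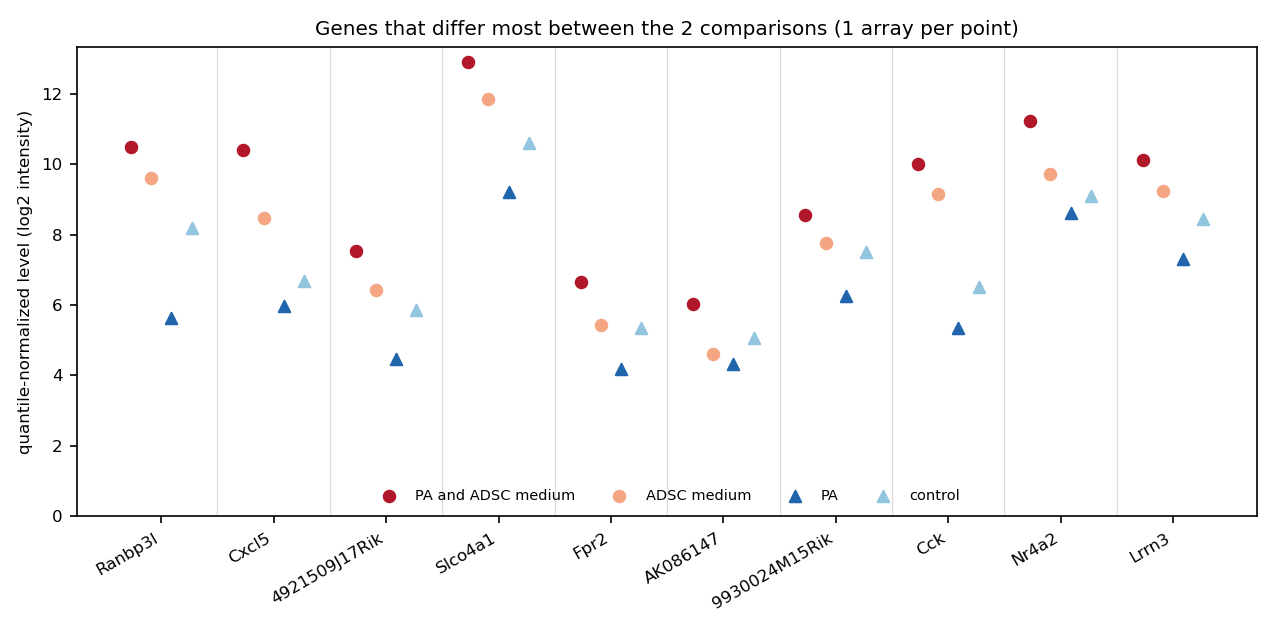
Quantile-normalized log2 level on each array of the 10 genes with the greatest gap between the 2 comparisons, 1 array per point, in the order PA and ADSC medium, ADSC medium, PA, control within each gene. In all 10 the PA and ADSC medium point is the highest and the PA point the lowest, as for Ranbp3l at 10.49 and 5.62.

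Lists in which few genes differed were also counted. No member of the autophagy, oxidative phosphorylation, ribosomal protein or housekeeping lists reached 1.5-fold in either direction, with medians of -0.02, -0.04, -0.05 and 0.00. Of 23 death ligand, caspase and necroptosis genes 3 were higher, Casp4, Tnfsf10 and Fasl, and 1 was lower, Bcl2. Over all genes 3.54% were higher and 3.14% lower at 1.5-fold. Tnfsf10 and Fasl were dim, at 3.16 and 3.09 with PA and ADSC medium. With the normexp background Tnfsf10 (0.22), Fasl (0.06) and Bcl2 (-0.54) were all under 1.5-fold. Of 21 TGF-beta targets 2 were higher, among them Fst, the activin antagonist follistatin, at 4.77 with PA and ADSC medium and 3.63 with ADSC medium. In the list of quiescent stellate genes 2 of 11 were higher, Colec11 and Bambi, and the median of 0.09 became -0.01 when all detected probes were averaged. Colec11 (0.26) and Bambi (0.55) were both under 1.5-fold with the normexp background. Several dim genes named above were under 1.5-fold with the normexp background, among them Fst at 0.33, Prelp at -0.55 and Nlrc5 of the MHC class I list at 0.21. Other named genes under 1.5-fold with it included Col6a3 (0.43), Cidec (0.17), Acss2 (-0.5), Ifnlr1 (-0.46), Lmod1 (-0.45) and Synpo2 (-0.33).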

How the data were processed

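Total RNA of IMS/N cells was hybridized to 4 one-colour Agilent arrays (design 014868, annotated on mm9), 1 per condition. Per the file headers, Feature Extraction 12.1.1.1 read them under protocol GE1_105_Dec08. The intensity used here is the processed signal that the authors deposited for each spot, with background subtracted and trends within the array removed by the scanner software, per the file headers. Quantile normalization by the authors is stated in the series' design text, and R 3.5.1 in the submitters' processing notes. Their deposited list of 1580 probe names carries no values, and the sources used here do not state how its threshold was set.

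Control spots and spots with an outlier flag (82 to 104 an array) were left out. Deposited intensities were taken to log2, spots of a probe were averaged, and limma 3.58.1 (R 4.3.3) quantile-normalized the 4 arrays. This left 41146 probes with a value on every array. RefSeq tables gave the symbols of 28680 probes by accession, of which 635 differed from the array's name, and 12466 kept that name. A gene was read from its brightest probe on average, for 26793 names. Well above background means flagged so by the scanner software on over 50% of the probe's spots. Where that held on 1 array only, the dim value was raised to the array's lowest well-detected level and the fold is a bound. These lowest levels were 2.11 (PA and ADSC medium), 2.30 (ADSC medium), 2.07 (PA) and 2.43 (control). The spot SD came from 245 probes printed on 10 spots.

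No test was run, since each condition has 1 array. The genes named are the 15 highest and 15 lowest differences among genes detected on both arrays with a mean level of at least 5 and at least 1.5-fold under 3 alternatives, up to 4 per gene list, a fixed set of marker and pathway genes, and 10 genes with the largest gap between the comparisons. Other list members are given to fill out their group and were picked with their values in view. The comparison, the 36 gene lists and the 8 marker lists (814 entries, 5 of them not analysed here) were chosen with earlier results of these data known. Results for a few genes are not reported here. Alternatives were 75th percentile scaling, the normexp background (offset 50), the mean over detected probes, no filter on dim probes, detection on both arrays, a 1.5-fold threshold and, added after seeing the data, a mean level of at least 5. The computation was tested on simulated data.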

Additional observations from a re-analysis of the deposited data

Results flagged for a closer look

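For 11 of the named genes PA went with a higher level in the presence of ADSC medium and with a lower level in its absence, each by at least 1.5-fold. The gap between the 2 differences was 3.46 for Ranbp3l, 2.64 for Cxcl5, 2.51 for 4921509J17Rik, 2.43 for Slco4a1, 2.39 for Fpr2, 2.19 for AK086147 and 2.06 for 9930024M15Rik. It was 2.03 for Cck, 2.0 for Lrrn3, 1.71 for Abcg1 and 1.58 for Slc1a3, all in log2 units. Each direction rests on 1 array against 1 array, and whether the 2 differences differ was not tested. With the normexp background the difference without the medium was under 1.5-fold for Cxcl5 (-0.43), 4921509J17Rik (-0.51), Fpr2 (-0.39), AK086147 (-0.25) and Slc1a3 (-0.33). For Cck the second probe gave a difference of -0.24 with the medium, against 0.85 on the brightest probe.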

How the results depend on the processing

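The counts of genes at least 2-fold different depended on the background correction, the filter on dim probes and the threshold. With PA and ADSC medium against ADSC medium, 233 genes were higher; normexp gave 105, no filter 659 and a 1.5-fold threshold 653. The 88 lower genes became 9, 526 and 579 under the same settings, and 28 with a mean level of at least 5. With PA against control, 199 genes were higher; normexp gave 106, no filter 664 and 1.5-fold 532. The 109 lower genes became 11, 552 and 596, and 46 with a mean level of at least 5. The minimum level was chosen after seeing the data. The correlation of 0.52 was 0.64 with normexp and 0.29 with no filter. The other settings left these counts within 1.5 times: 75th percentile scaling gave 234 higher and 80 lower with the medium, and 193 and 127 without it. Of 119 named genes at least 1.5-fold different, 118 stayed so with 75th percentile scaling, 95 with normexp and 115 with the mean of probes, and none of them changed sign. These counts include the genes named for the highest and lowest differences, which were admitted only if at least 1.5-fold under these same settings. For those genes the outcome was fixed by the naming rule, so the counts overstate how well the named genes hold. No paired analysis was possible because each condition has 1 array and the labels carry no replicate numbers, and for the same reason no replicate could be left out. Probes near background carry most of the spread, and the number of arrays limits all values.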
